A study of Mus musculus with 12 samples.

Results

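Regions enriched for acetylated RNA whose centre lay outside every annotated gene numbered 399 of 4753 over 6 peak lists, or 8.39% of all regions. A region belonged to this set when each of its rows in a list called the centre intergenic or gave no overlapped gene. Regions of different lists that shared at least 1 base were merged, which left 235 merged regions outside genes among 2808 in all. Of these, 2 were also centred inside a gene in another list.

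The lists came from ac4C RIP-seq, in which RNA bound through N4-acetylcytidine (ac4C) is pulled down and sequenced, of mouse peritoneal macrophages, phagocytes of the abdominal cavity. The cells were kept in culture with interferon-γ (IFN-γ), the cytokine of classical macrophage activation, for 0, 24 or 48 h. The 12 samples formed 6 groups of 2, a pull-down and a total RNA group at each time, and 2 peak lists were given per time. No cells without IFN-γ were sampled at 24 h or 48 h, so IFN-γ and elapsed time cannot be told apart. Strain, sex and age of the mice are not stated in the labels used here. Separate mice or cultures per sample are not stated, so the p-values cover only list-to-list spread, possibly technical. A list names its hour and not its sample, and the numbers 1 and 2 pair nothing.

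ac4C is written into RNA by the acetyltransferase NAT10, best known for its sites in ribosomal RNA and transfer RNA, and has also been mapped to messenger RNA. Sequenced RNA from outside gene bounds can come from transcripts that run past an annotated 3′ end, from starts upstream of the annotated one, or from transcripts that an annotation does not hold. RNA of a macrophage cell mixture is measured here in bulk, so fewer cells of a type and less RNA per cell cannot be told apart. The peaks carry no strand, and no sequence is printed because no genome of the lists' build, GRCm39, was used here.

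Of the 10 macrophage marker genes looked up, Itgam had a peak in 2 lists and Lyz2 in 1 list, and the other 8 had none. Among markers of other cells, the mesothelial gene Wt1 had a peak in 1 list, and the other 3 mesothelial, 4 B cell and 3 T cell genes had none. A gene with no peak can still be expressed, so these lists do not settle the labelled cell type. None of the macrophage, IFN-γ response, inflammatory or ac4C enzyme genes looked up (13, 24, 10 and 2 genes) was the gene closest to a region outside genes. Coverage, worked back from the deposited fold and p, differed between times. The control library, called input here, reached 100% and 91.4% of the deepest list at 0 h, 73.7% and 80.8% after 24 h, and 57.2% and 44.5% after 48 h. The pull-down did not follow the input and was deepest after 24 h. It reached 91.5% and 78% of the deepest list at 0 h, 100% and 98% after 24 h, and 78% and 68.6% after 48 h.

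Every later list held fewer regions outside genes than either 0 h list, and the same was so for regions in genes. The 0 h lists held 103 and 81 of them, the 24 h lists 65 and 51, and the 48 h lists 48 and 51. The 24 h and 48 h lists overlapped. The mean was 53.75 over the 4 later lists, against 92 ± 15.6 (SD, n = 2 lists) at 0 h, a log2 ratio of -0.78 (two-sided exact permutation p = 0.067, the smallest that 2 lists against 4 allow). The log2 ratio to 0 h was -0.67 at 24 h and -0.89 at 48 h, each at an exact two-sided p of 0.33, the smallest for 2 lists against 2. Between 48 h and 24 h the log2 ratio was -0.23 (exact permutation p = 0.67). An exact two-sided Jonckheere-Terpstra trend test over the 3 times gave p = 0.044. That call ended at a q of 0.05 or 1e-05, at a fold of 4, at matched input coverage and at equal list length, where the exact p lay between 0.067 and 0.47.

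Regions centred in genes followed the same course, with means of 956.5, 627.5 and 593 per list at 0, 24 and 48 h. Their log2 ratio of later times to 0 h was -0.65 (exact permutation p = 0.067). The share of a list that lay outside genes was 8.95% and 8.56% in the 0 h lists, 8.97% and 7.89% in the 24 h lists, and 7.12% and 8.35% in the 48 h lists. These ranges overlapped between 24 h and 0 h. Both 48 h shares lay below both 0 h shares, a mean difference of -1.02 percentage points (exact two-sided permutation p = 0.33, the smallest that 2 lists against 2 allow). The mean share of the 4 later lists differed from that at 0 h by -0.67 percentage points (exact two-sided permutation p = 0.4). At a fold of 4 or more the share was 8.16%, 9.84%, 6.81% and 10.2% in the later lists, against 12.1% and 10% at 0 h, a difference of -2.31 points (exact permutation p = 0.2). Taking only the 611 strongest regions of each list left 52, 50, 44 and 51 outside genes at the later times, against 57 and 53 at 0 h, a log2 ratio of -0.16. At matched input coverage the counts were 52 and 35 at 24 h and 44 and 51 at 48 h, against 78 and 65 at 0 h. The length covered by regions outside genes averaged 28.3 ± 4.41 kb per list before IFN-γ, 16.9 ± 3.69 kb after 24 h and 14.1 ± 1.83 kb after 48 h (SD over 2 lists per time), a log2 ratio of later times to 0 h of -0.87 (exact permutation p = 0.067).

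**Figure D1:**
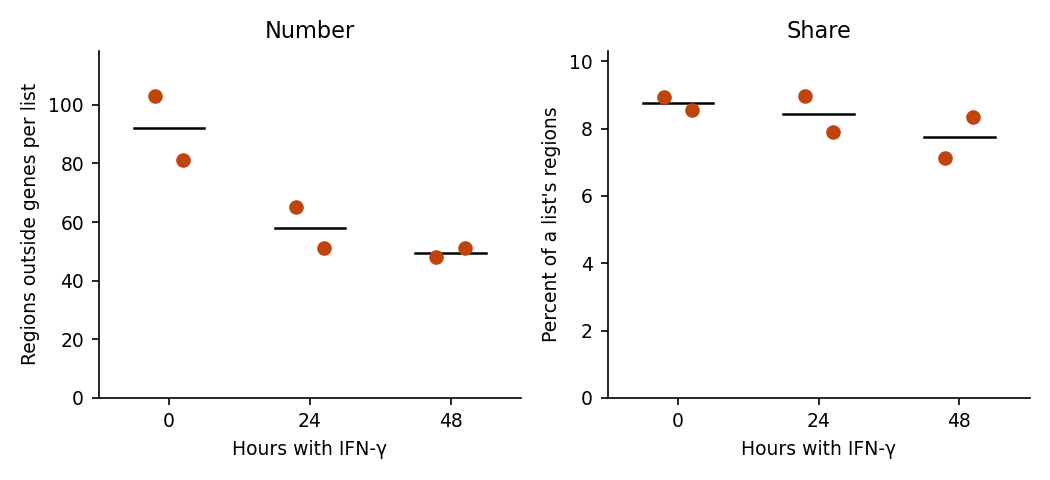
Number of regions outside genes in each list (left) and their share of all regions of that list in percent (right) against hours with IFN-γ; points are the 2 lists of a time and bars their mean. The counts at 24 h and 48 h (48 to 65) lie below both 0 h counts (103 and 81), while the shares of the 3 times lie between 7.12% and 8.97%.

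No difference in length or strength between regions outside genes and regions in genes passed the adjusted test. Within a list their median length was 225.5 to 264 bases, against 237.5 to 273 bases in genes, and it was shorter in 5 of 6 lists. The mean within-list difference was -10.7 ± 9.69 bases (SD, n = 6 lists, exact sign-flip test, two-sided p = 0.0625, 0.22 after Benjamini-Hochberg adjustment over 7 measures). The shortest region outside genes had 208 bases and the longest 1390, and 25 of the 399 were longer than 500 bases. Median fold enrichment, the authors' ratio of pull-down over control, was 2.97 to 3.54 outside genes, against 2.94 to 3.35 in genes. The difference was 0.1 ± 0.16 (exact sign-flip p = 0.19, adjusted 0.44). The median −log10 p differed by 0.022 ± 0.26, lower outside genes in 2 of the 6 lists (exact sign-flip p = 0.84, adjusted 0.84).

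Several summits were found in 2.08% to 11.1% of the regions outside genes of a list, against 6.07% to 11.5% of those in genes, a mean difference of -2.45 ± 2.32 percentage points with 5 of 6 lists lower (exact sign-flip p = 0.0625, adjusted 0.22). A q of 1, which marks regions that do not pass any correction for multiple testing, applied to 19.8% to 47.1% of a list outside genes, against 25.3% to 45.2% in genes (difference -2.34 ± 5.8 points, exact sign-flip p = 0.38, adjusted 0.44). Of the 399 regions outside genes, 170 had a q of 0.05 or less. At that q they made up 5.53% to 9.52% of a list's regions, against 7.12% to 8.97% with all its regions counted. None of the 7 measures passed the adjusted test, and 6 lists allow an unadjusted p no lower than 0.03125. The differences were larger among regions with a q of 0.05 or less, with 0.49 in fold, -17.4 bases in length and -8.76 points in several summits (exact sign-flip test, adjusted p = 0.055 for each). At a q of 1e-05 or less these differences were 0.49, -19.8 bases and -13.3 points (exact sign-flip test, adjusted p = 0.22 to 0.27). Both adjustments counted 7 measures, although no region can have a q of 1 at these settings. That measure could not vary, so these adjusted p-values are higher than over the measures that could.

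Input coverage here is the control level that the deposited fold and p imply at a summit. Control reads beside a region may enter it, so control RNA within the region itself was not shown. Input coverage at the summit had a median of 4.54 to 7.98 times the background of its list outside genes, against 5.9 to 8.25 times in genes (mean difference -0.61 ± 1.34, exact sign-flip p = 0.28, adjusted 0.44). Among regions with a q of 0.05 or less, and of 1e-05 or less, the difference was -4.02 and -7.38 (exact sign-flip test, adjusted p = 0.055 and 0.27 over the same 7 measures). It reached at least 2 times the background at 77.9% of the regions outside genes, against 83.8% of those in genes. It reached at least 10 times the background at 38.8% of the regions outside genes and 41.2% of those in genes. The summits held a median of 36 to 55 pull-down fragments outside genes and 43 to 50 in genes (difference -2.92 ± 6.68, exact sign-flip p = 0.31, adjusted 0.44).

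**Figure D2:**
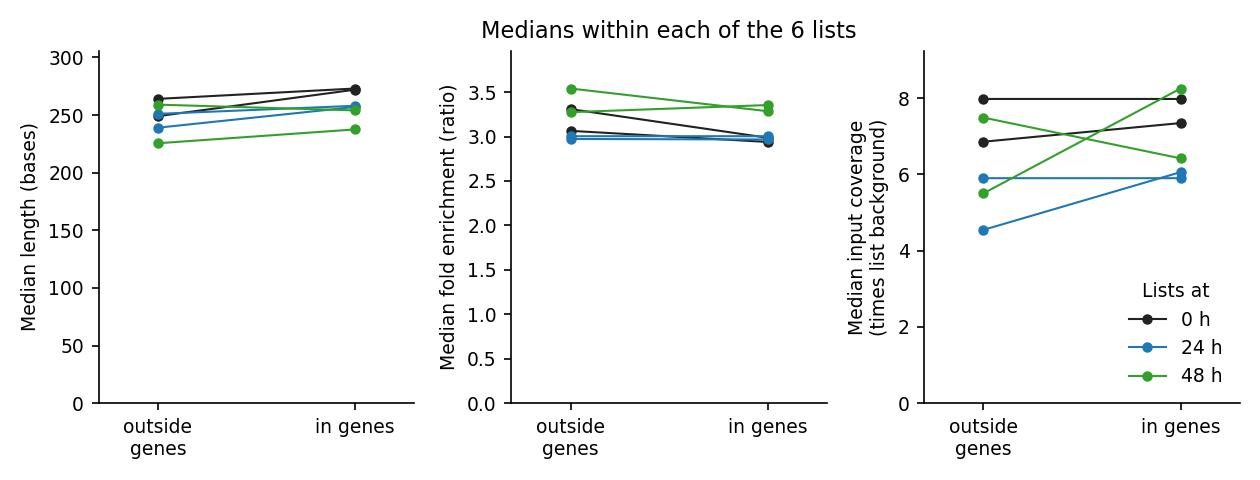
Median length in bases, median fold enrichment (the authors' ratio) and median input coverage in multiples of the list's background, for regions outside genes (left) and in genes (right). Each line is 1 of the 6 lists, coloured by hour; length is lower outside genes in 5 of 6 lists, and the lines of the other measures run both ways.

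More of the merged regions lay past the 3′ end of the gene with the closest start than upstream of it. With each merged region placed by the gene whose start was closest, 125 of 235 (53.2%) had their centre past that gene's annotated 3′ end and 107 (45.5%) upstream of its start. Past the 3′ end the centre lay within 1 kb in 24 regions and within 5 kb in 74, with a median of 4032 bases. Upstream of the start it lay within 1 kb in 13 and within 5 kb in 39, with a median of 8002 bases. In each of the 6 lists more regions lay within 5 kb past a 3′ end (25% to 36.9%) than within 5 kb upstream of a start (11.8% to 20.8%). This comparison was chosen after the values were seen and was not tested. No share for random positions outside genes is set beside it. A region past the end of a long gene can be assigned to a neighbour whose start is closer, as at Gpnmb below. Over all 2203 genes whose bounds the lists give, 82 merged regions lay within 5 kb past a 3′ end.

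**Figure D3:**
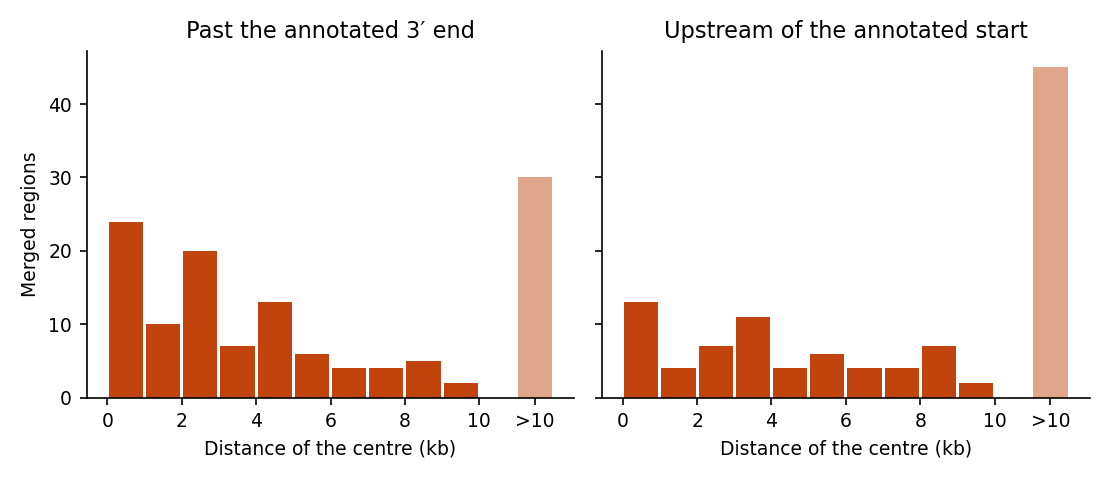
Merged regions outside genes by the distance of their centre, in 1 kb bins up to 10 kb, past the annotated 3′ end (left) and upstream of the start (right) of the gene with the closest start; the pale bar counts all regions beyond 10 kb. The bin next to the 3′ end holds 24 regions and the bin next to the start 13.

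The 235 merged regions had 211 different closest genes. By symbol or identifier 182 regions were matched to RefSeq gene types. The matched closest genes were protein-coding for 147 regions, pseudogenes for 13, long noncoding RNA genes for 11, small nuclear RNA genes for 5, microRNA genes for 3, small nucleolar RNA genes for 2 and a transcribed pseudogene for 1. A further 51 were not matched, and 2 regions on unplaced scaffolds had no gene.

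Gene bounds decided membership in a few cases. At 15 of the 399 regions an edge reached into a gene while the centre lay outside it. Such regions straddled the 3′ end of Zfp146, a zinc finger gene, in both 0 h lists and 24 h list 2. In 0 h list 2 one reached into the first exon of Rpl10a, which codes for a protein of the large ribosomal subunit, with its merged centre 120 bases upstream of the start. At 3 regions, in Ctsl, Reep3 and Ugp2, both edges were annotated in exons or introns of the gene although the centre was called intergenic. The Ctsl region lay within the gene's own bounds.

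Most regions outside genes had no peak of a gene close by. Within a list 8.74% and 7.41% of them in the 0 h lists, 4.62% and 5.88% in those of 24 h, and 2.08% and 3.92% in those of 48 h lay within 10 kb of a region centred in a gene. The mean was 5.44% ± 2.42 (SD, n = 6 lists), against 3.19% ± 0.833 for regions in genes that had a region of another gene at that distance. The difference of 2.25 ± 2.43 points did not pass (exact sign-flip test, two-sided p = 0.094), and it was negative in 48 h list 1. With the peaks of all lists pooled, 27 of the 235 merged regions (11.5%) lay within 10 kb of a region in a gene.

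Chromosome 6 held the most regions outside genes. It carried 30 of the 235 merged regions (12.8%), against 137 of the 2573 merged regions without a peak centred outside genes (5.32%). Per list the share on chromosome 6 was 16.5% and 19.8% in the 0 h lists, 16.9% and 9.8% in those of 24 h, and 8.33% and 17.6% in those of 48 h, against 4.54% to 5.91% of the regions in genes. It was above the share in genes in each of the 6 lists, but rested on 5 regions in 24 h list 2 and 4 in 48 h list 1. The merged regions on chromosome 6 are not all separate loci. A run of 5 lay near Tax1bp1, and pairs lay near Hnrnpa2b1, ENSMUSG00002076122, Clec2l and Sem1. Chromosome 5 followed with 23 merged regions (9.79%, against 5.17% in genes). Chromosome 11 held 10 (4.26%, against 8.74%) and chromosome 1 held 9 (3.83%, against 8.01%). The chromosomes named were chosen after their values were seen, and no test was made.

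When neighbours within 10 kb were joined, 37 of the 235 merged regions (15.7%) fell into 17 clusters. Merged regions in genes were not joined in this way, so the share has no counterpart to judge it by. The largest cluster, with 5 merged regions over 18.2 kb at chr6:52710106-52728296, lay between the predicted gene Gm43967 and Tax1bp1, an adaptor protein of selective autophagy. Its 5 regions were spread over both 0 h lists, 24 h list 1 and 48 h list 2, and 24 h list 2 and 48 h list 1 had none. The region of the cluster closest to Tax1bp1, centred 6328 bases upstream of its start, had folds of 3.59 and 3.99 at 0 h, 7.3 in 24 h list 1 and 6.34 in 48 h list 2. The next, 15407 bases upstream, had a fold of 7.2 in 48 h list 2, against 2.88 and 2.2 at 0 h. Both had their highest fold at a later time, where input was 2.75 to 4.18 times the background against 6.7 to 20.1 times at 0 h. The folds of different lists were not tested against each other. Each of the other 16 clusters held 2 merged regions, among them pairs past the 3′ end of Hnrnpa2b1 and upstream of ENSMUSG00002076122, Gm26679 and Gm43518.

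Most merged regions outside genes were found in 1 list only, as were most others. Of the 235, 142 (60.4%) were found in 1 list, 53 in 2, 21 in 3, 11 in 4, 6 in 5 and 2 in all 6. Thus 93 (39.6%) were found in 2 or more lists, against 939 of 2573 regions without a peak centred outside genes (36.5%), and the share over all 2808 merged regions was 36.8%. Regions in 4 or more lists made up 19 of 235 (8.09%), against 218 of 2573 (8.47%), with 8.44% over all. Both shares were near those of all merged regions. Of the 142 regions in 1 list, 49 had a q of 1. Without 0 h list 1, the longest list, 58 merged regions outside genes were found in 2 or more of the remaining lists. Neither count is set beside a share over all merged regions, so neither describes the set against the others. By time, 82 merged regions outside genes (34.9%) were found at 0 h only, 46 (19.6%) at 24 h only and 36 (15.3%) at 48 h only, where the shares over all 2808 merged regions were 34.2%, 19.6% and 16.4%. A further 19 (8.09%) were found at all 3 times, against 9.65% of all. Pairs of times held 27 (0 h and 24 h, 11.5% against 7.55% of all), 16 (0 h and 48 h, 6.81% against 7.83% of all) and 9 (24 h and 48 h, 3.83% against 4.81% of all). The set's shares at a single time were thus near those of all merged regions. Its share at 0 h and 24 h together was higher, and this difference was not tested.

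**Figure D4:**
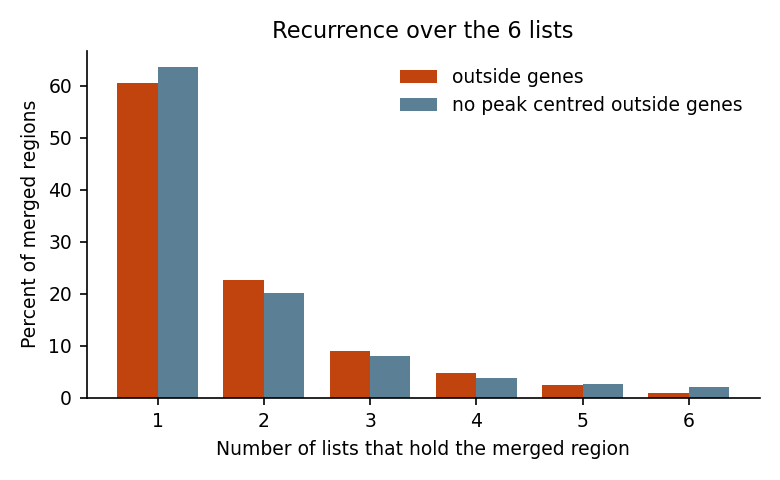
Percent of merged regions that were found in 1 to 6 of the lists, for the 235 merged regions with a peak centred outside genes (left bars) and the 2573 without one (right bars). The 1-list bars stand at 60.4% and 63.5% and the 6-list bars at 0.851% and 2.06%. The 2 profiles are close in percentage points at every number of lists.

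Among the regions found in the most lists, that at chr15:83038239-83038630 was found in all 6 lists, 4430 bases past the 3′ end of Rnu12, the U12 small nuclear RNA of the minor spliceosome. Its fold was 3.97 and 2.07 in the 0 h lists, 2.72 and 2.05 in those of 24 h, and 3.78 and 3.13 in those of 48 h. Its −log10 q was above 5 in every list, from 5.29 in 24 h list 2 to 39.6 in 0 h list 1. It was the strongest region outside genes in 0 h list 1 and in both 48 h lists.

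The other region in all 6 lists, chr13:75918902-75920292, lay 3281 bases past Gm23127. It was the longest of the set, with up to 1390 bases in 24 h list 1, where its fold was 3.53. In the other lists its strongest part had folds of 3.06 and 2.28 at 0 h, 2.38 in 24 h list 2, and 3.61 and 2.99 at 48 h. Both 48 h lists split it into separate regions.

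The strongest region of the set by p lay 516 bases past the 3′ end of Pfn1, which codes for the actin-binding protein profilin 1, at chr11:70542797-70543062. Its fold was 2.6 and 3.44 before IFN-γ, 2.56 and 1.96 after 24 h, and 3.27 in 48 h list 2, with no peak in 48 h list 1. Its −log10 p was 8.63 to 13.1 in the later lists that held it, against 42.6 and 56.6 at 0 h. Its input coverage was 38.5 to 68.1 times the list's background in those later lists, against 129 and 91.1 times at 0 h. It held 185 to 270 pull-down fragments in them, against 629 and 505 at 0 h, and the part of depth in the difference in p was not tested.

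A region 2773 bases past the 3′ end of Hnrnpa2b1, a nuclear ribonucleoprotein of mRNA processing, at chr6:51439807-51440184, was found in 5 lists. Its fold was 2.41 and 2.61 before IFN-γ, 2.23 and 2.19 after 24 h, and 1.9 in 48 h list 1, where its q was 1. Hnrnpa2b1 itself had a region in the gene in 3 lists, 3104 bases away. A region 497.5 bases past the 3′ end of Pabpn1, the nuclear poly(A)-binding protein, at chr14:55135887-55136193, was found at 48 h and 0 h. Its fold was 4.66 and 2.67 at 48 h, against 6.35 and 7.68 at 0 h, with a q of 1 in 48 h list 2, and it had no peak in either 24 h list.

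Found in 5 lists, a region at chr3:135170985-135171359 lay 18215 bases upstream of the predicted gene Gm42807. Its folds were 2.72 and 2.5 at 0 h, 3.66 in 24 h list 1, and 3.85 and 3.42 at 48 h. It was the strongest region outside genes in 24 h list 1. A region 17220 bases past Atp6v1h, a subunit of the proton pump of lysosomes, had folds of 3.78 and 3.76 at 24 h, against 2.76 and 3.72 at 0 h, and no peak at 48 h. The region at chr1:171459006-171459548 lay 3024 bases upstream of Gm37787 and 495 bases from a region in Slamf7, a receptor of the SLAM family. It was found in 5 lists with folds of 1.76 to 3.96. The region at chr11:106671292-106671703 lay 1232 bases upstream of Polg2, the accessory subunit of mitochondrial DNA polymerase, and 763 bases from a region in the RNA helicase gene Ddx5. It was found in 5 lists with folds of 2.01 to 3.44 and a q of 1 in 2 of them. The region at chr6:17665339-17666520, 6202 bases past the 3′ end of Capza2, a subunit of the actin capping protein, was found in 5 lists with folds of 1.61 to 3.16. Its closest start was that of ENSMUSG00002075585.

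More merged regions outside genes were lost than gained at the later times, as among all merged regions. At 24 h, 22 of 235 were lost, that is found in both 0 h lists and in neither 24 h list, where 7.3% of all 2808 merged regions were lost. At 48 h 23 were lost, where 6.87% of all were. In the reverse direction 4 were gained at 24 h and 6 at 48 h, where 1.53% and 1.92% of all merged regions were gained. In percent, 9.36% and 9.79% of the merged regions outside genes were lost at 24 h and 48 h, and 1.7% and 2.55% gained. The comparisons share the 0 h lists. The 0 h lists were also the longest and had the deepest input. Matched input coverage gave 19 and 16 lost and 5 and 6 gained at 24 h and 48 h. At equal list length 14 and 12 were lost and 7 and 7 gained, and at a fold of 4 or more 5 and 4 were lost and 1 and 1 gained. Shares over all merged regions at these settings are not given here, so these counts do not set the members against all merged regions.

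Regions that each 0 h list held and all 4 later lists lacked numbered 16 (4.99% of all merged regions were lost in this way, against 6.81% of those outside genes). The highest-ranked lay at chr6:49039152-49039396, with folds of 3.45 and 4.53 at 0 h and a −log10 q of up to 27.2. Its closest start was that of the pseudogene Gm19253, and its centre lay 4153.5 bases past the 3′ end of Gpnmb, a transmembrane glycoprotein of macrophages, in which a region was found in 5 lists. The next lay 6703.5 bases past Ywhah, the 14-3-3 η gene, with folds of 2.32 and 2.5. The third lay 8774 bases upstream of Pon3, a paraoxonase, with folds of 3.77 and 3.37. The other 2 of the highest 5 lay 2757.5 bases past Dync1i2, an intermediate chain of dynein, and 128 bases past Anxa9, an annexin, with folds of 2.66 and 3.41 and of 2.56 and 3.23. The Rpl10a region above was also absent from the later lists, with folds of 3.68 and 4.24 at 0 h and a q above 0.05.

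A gain in all 4 later lists with no peak at 0 h was found for 2 merged regions, 0.851% of the set, where 1.28% of all merged regions were gained in 3 or 4 later lists. One lay at chr16:22077689-22078025, 7251 bases upstream of Tra2b, a splicing regulator, with folds of 5.5 and 4.4 at 24 h and 4.06 and 7.9 at 48 h. Its q was below 0.05 in each of the 4 lists, with −log10 q from 1.99 to 7.09. It held 36 to 57 pull-down fragments, on input of 1.84 to 6.42 times the background. The other lay at chr17:53813453-53814091, 5967 bases upstream of the predicted gene Gm49915, with folds of 2.31 and 2.02 at 24 h and 2.62 and 3.22 at 48 h and no q below 0.05.

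At one later time only, the strongest gain lay at chr4:132257875-132258111, 2002 bases upstream of the predicted gene Gm12999. The nearest region in a gene lay 36815 bases away, in Sesn2, which codes for the stress-induced protein sestrin 2. The region upstream of Gm12999 had folds of 3.73 and 7.6 at 24 h, with −log10 q of 10.0 and 25.5, and no peak at 0 h or 48 h. It was the strongest region outside genes in 24 h list 2. The fourth gain at 24 h lay 6686 bases upstream of the transcription factor gene Gabpa, with folds of 3.41 and 2.24 and a q of 1 in both lists. Of the 4 regions gained at 48 h only, the strongest lay at chr16:10778357-10778702, 5094 bases upstream of ENSMUSG00002075232, with folds of 1.92 and 2.02, 278 and 268 fragments and −log10 q of 2.72 and 2.48. Its input coverage was 89.8 and 93.5 times the background. The other 3 had no q below 0.05. They lay 1801 bases upstream of Gpnmb, with folds of 3.03 and 4.0 on 22 and 27 fragments, 13958 bases upstream of Gm44445, with folds of 3.55 and 3.27, and 32878 bases past Nfkb1, the NF-κB subunit gene, with folds of 4.68 and 2.97. The Gabpa region and these 4 were named after their values were seen.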

How the data were processed

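The authors deposited 6 peak tables, 2 per time, with a row for each summit and overlapped gene. MACS2 2.1.0, BWA 0.7.12 and the build GRCm39 are named, per the submitters' processing notes, without roles or settings. Fold enrichment is the authors' ratio, and p and q are deposited as −log10 values, per the file headers. Starts may be off by 1 base. Counts of the total RNA libraries were not used here.

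Fragments and input coverage at each summit were recovered from the deposited fold and p: whole fragments times 1 factor per list, plus 1, over input coverage plus 1, with a Poisson tail; 100% of summits matched within 0.005 of −log10 p. Input coverage is thus an implied control level, which may draw on reads beside the summit. The lowest input coverage of a list is its background. A merged region was in a list if any peak of it was. Times were compared by exact permutation and trend tests over lists, and places by exact sign-flip tests over the 6 lists, with Benjamini-Hochberg adjustment over 7 measures, in Python 3.11.15, NumPy 2.4.6 and SciPy 1.17.1. Medians were compared on values whose differences of up to 0.01 count as ties. RefSeq (GRCm38.p6) gave gene types only. The steps were tested on simulated data.

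Regions were ranked by number of lists, then by mean percentile of −log10 p in the lists that hold them. Named were the 12 highest, the 5 highest lost at both later times, the 5 highest gained in 3 or 4 later lists (2 existed), the strongest of each list and the 5 largest clusters. The members and gene lists were chosen with earlier results of these data known. The fragment and input measures were added after seeing the data.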

Additional observations from a re-analysis of the deposited data

Results flagged for a closer look

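The share of regions with a q of 1 stood on opposite sides of the share in genes at 24 h and at 0 h. At 24 h it was 43.1% and 47.1% outside genes, against 38.8% and 45.2% in genes. At 0 h it was 22.3% and 19.8% outside genes, against 25.3% and 26.8% in genes. Both 24 h lists had a positive difference and both 0 h lists a negative one, and the mean differences at 24 h and 0 h were 8.08 percentage points apart. The difference between times was not tested, and the 48 h lists went both ways.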

How the results depend on the processing

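Of 358 alternative values over 29 results, 308 kept their direction and side of the threshold or stayed within 1.5 times. Some of the 308 could not change, since leaving out a list does not alter a comparison of the other times. Comparisons of 2 lists against 2 also cannot pass the threshold. Among the alternatives other than leaving out a list, 181 of 220 stayed the same in this sense. The log2 ratio of later times to 0 h stayed negative for the number of regions outside genes (-0.16 at equal list length to -1.51 at a q of 1e-05; -0.59 to -0.94 without 1 list). So did the covered length (-0.16 to -1.46; -0.7 to -1.02 without 1 list) and the share (-0.22 points with start, centre and end outside genes to -2.31 at a fold of 4; -0.35 to -0.97 without 1 list). The length difference was -8.2 to -13.8 bases without 1 list, the fold difference 0.061 to 0.14, the share with a q of 1 -0.62 to -3.67 points and that with several summits -1.87 to -3.2; the larger values at the q settings stand beside the comparison. The −log10 p difference turned to -0.11 at a q of 0.05, -0.32 at matched input coverage, -0.026 at equal list length and -0.38 with means, and was -0.0397 to 0.087 without 1 list. The q of 1 difference was 0.36 at matched input coverage. The number at 48 h against 24 h turned to 0.32 (covered length 0.42) at a fold of 4 and to 0.13 (0.083) at matched input coverage. The share at 24 h against 0 h turned to 0.17 with start, centre and end outside genes and was -0.86 to 0.21 without 1 list. The share at 48 h against 24 h turned to 0.49 at a q of 0.05 and 0.21 at 1e-05. The trend test of the number gave an exact p of 0.18 at both q settings and at matched input coverage, 0.47 at a fold of 4, 0.067 at equal list length and 0.067 to 0.13 without 1 list, where it cannot go below 0.067.

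Merged regions in 2 or more lists numbered 34, 18 and 12 at a q of 0.05, a q of 1e-05 and a fold of 4, and 58 to 82 without 1 list. In that order of settings, 11, 9 and 5 were lost and 2, 2 and 1 gained at 24 h, and 12, 9 and 4 were lost and 2, 0 and 1 gained at 48 h. Equal list length gave 14 losses with 7 gains after 24 h and 12 losses with 7 gains after 48 h. None of these counts is set beside the share over all merged regions at its setting. The percentage within 10 kb of a region in a gene became 11.6% at 50 kb, and 2.12%, 1.71% and 0.617% at those 3 settings. Stricter settings keep fewer regions by construction; for the other moves the cause was not tested. Losses and gains have no value with 1 list of a time. No paired analysis was possible because nothing in the labels ties the list numbers 1 and 2 to a shared animal, culture or batch, and the lists are not tied to samples. The depth of a list sets what it can detect, and a missing peak is no evidence of unacetylated RNA.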
